A study of Bos taurus with 6 samples.

Results

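LMO2, HHEX and 8 further transcription regulators of endothelial and blood cells were examined in primary bovine aortic endothelial cells treated with TGF-beta 1. A member was any probe set whose single gene symbol in the array annotation was LMO2, HHEX, TAL1, GATA2, ETS1, ERG, FLI1, SOX18, KLF2 or KLF4. This gave 11 probe sets of 24016, for 7 of the 10 genes. TAL1, GATA2 and KLF2 had no probe set under their symbol and were not analysed here. The members were chosen by gene symbol with the differences between treated and basal arrays already known. Every difference, interval and call given for them below is therefore a description and no test.

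The cells were isolated from bovine aorta with collagenase and grown in culture. The 3 TGFB1 arrays came from cultures kept for 24 hours with TGF-beta 1 at 5 ng/ml, and the 3 basal arrays from untreated cultures. The labels give no animal, age, sex or passage, and do not tie any treated array to a basal one. P-values measure only the spread among arrays of one group, which may be technical. Values are RMA expression on a log2 scale from an Affymetrix bovine array, so a difference of 1 is a 2-fold change. They carry no detection call, and levels of different probe sets cannot be set against each other. With 3 arrays a group, precision is limited for all values.

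Endothelial identity is kept by a small group of transcription factors that bind the enhancers and promoters of vascular genes together. LMO2 has no DNA-binding domain of its own and bridges the basic helix-loop-helix factor TAL1 with GATA factors. ETS family members such as ERG and FLI1 act in most endothelial genes, SOX18 acts in arterial and lymphatic development, and KLF2 and KLF4 are induced by blood flow and restrain inflammation and clotting. Most of these factors also serve blood cell development. TGF-beta is known to move endothelial cells towards a mesenchymal state in some settings.

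The 2 genes that passed the limma threshold over genes, an adjusted p under 0.05, were LMO2 and HHEX, both lower after TGF-beta 1. LMO2 fell 3.54-fold and HHEX fell 2.35-fold. SOX18, FLI1, ERG and KLF4 had lower means and ETS1 a higher mean in treated cultures, and these did not pass. Over all 9155 genes 1.71% passed, and 1.16% passed as lower, 106 genes in all. Fitted per probe set, both probe sets of LMO2 passed and no other member did, against 0.658% of the 24016 probe sets, or 0.354% as lower. Treated and basal arrays did not overlap in 7 of the 11 probe sets, against 19.2% of all probe sets. In 6 of these the treated arrays were lower, against 11.6%. These shares are given beside the members' counts for scale, and nothing is read from the contrast, since the members were chosen with it known.

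**Figure D1:**
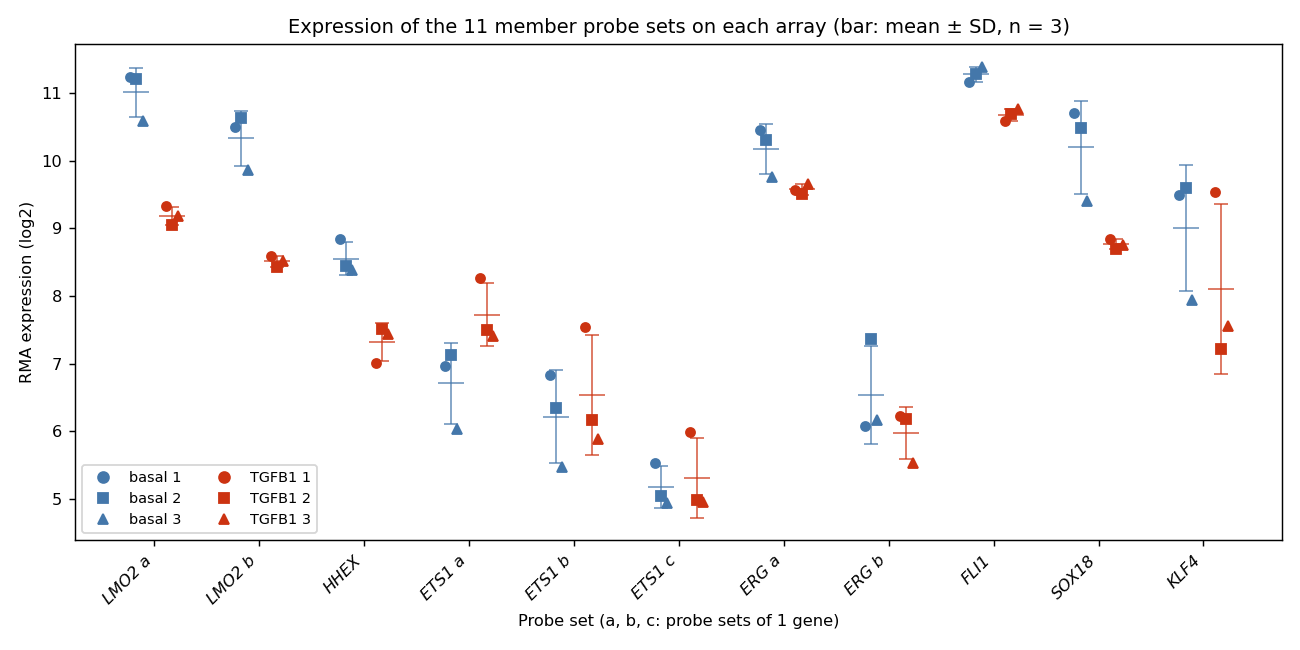
RMA expression (log2, vertical axis) of the 11 member probe sets on each of the 6 arrays, basal in blue and TGFB1 in red, with the mean ± SD (n = 3) as bars. For LMO2 the treated arrays lie between 8.43 and 9.32 and the basal arrays between 9.86 and 11.23, while KLF4 is near 9.5 on basal 1, basal 2 and TGFB1 1 and lower on the other arrays.

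LMO2 (Entrez gene 614876), the LIM-only bridging factor, was measured by a pair of probe sets, numbered here in the order of their array identifiers. The first read 11.23, 11.20 and 10.59 log2 on basal 1 to 3 and 9.32, 9.05 and 9.18 on TGFB1 1 to 3. Every treated array lay more than 1 log2 unit below every basal array, and basal 3 was the lowest basal array. Its group means were 11.01 ± 0.36 and 9.18 ± 0.14 (SD, n = 3 each), a difference of -1.82 (SE 0.20, 95% interval -2.31 to -1.34). The second read 10.50, 10.63 and 9.86 on the basal arrays and 8.59, 8.43 and 8.52 on the treated arrays. Its difference was -1.82 too (SE 0.21, interval -2.33 to -1.30). The 2 probe sets correlated at 0.998 over the 6 arrays, and so gave the same pattern for this gene. The limma adjusted p was 0.0376 and 0.0397 over probe sets. No member passed when basal 1, basal 2, TGFB1 1, TGFB1 2 or TGFB1 3 was left out. The difference of the first LMO2 probe set ran from -2.08 to -1.69 over the alternatives.

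HHEX (Entrez gene 539542) is a homeobox factor of blood and endothelial progenitors that acts largely as a repressor. Its 1 probe set read 8.84, 8.44 and 8.38 log2 on the basal arrays and 7.01, 7.52 and 7.43 on the treated arrays. The groups were apart by 0.86 log2, the gap from the lowest basal to the highest treated array. The basal mean was 8.55 ± 0.25 and the treated mean 7.32 ± 0.27 (SD, n = 3 each), a difference of -1.23 (SE 0.19, interval -1.70 to -0.77). Its limma adjusted p was 0.0464 over genes and 0.0629 over probe sets, so its call depends on which features are adjusted for. Over the alternatives for genes that p ran from 0.0158 to 0.203, and the difference per probe set ran from -1.33 to -1.003. In contrast to LMO2, the array that stood lowest among treated cultures was TGFB1 1.

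Among the ETS factors, FLI1 (Entrez gene 529124), which drives vascular and megakaryocyte genes, had the tightest basal group of the member probe sets, with an SD of 0.12. Its probe set read 11.16, 11.27 and 11.39 log2 on the basal arrays and 10.59, 10.69 and 10.76 on the treated arrays. The groups did not overlap, and basal 3 was here the highest basal array. The difference was -0.59 (SE 0.10, interval -0.84 to -0.35), a ratio of 1.51, and did not pass the threshold over probe sets or genes. It ran only from -0.65 to -0.54 over the alternatives.

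ERG (Entrez gene 535231), the ETS factor that maintains junctional and anti-inflammatory genes of endothelium, was measured by a pair of probe sets. The first read 10.46, 10.30 and 9.75 on the basal arrays and 9.56, 9.50 and 9.66 on the treated arrays. The groups were separate by 0.09 log2, with basal 3 next to TGFB1 3. Its difference was -0.60 (SE 0.19, interval -1.07 to -0.12). The second read 6.07, 7.37 and 6.16 against 6.23, 6.18 and 5.54, and its groups overlapped. Its difference of -0.56 had a wide interval, from -1.52 to 0.41. It rested on basal 2, the highest array, and was -0.14 without it, where the first stood at -0.53. With array weights, whose estimation did not converge and gave basal 2 a weight of 29.9, the pair stood at -0.74 and -1.39. The 2 probe sets correlated at 0.47 over the 6 arrays.

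ETS1 (Entrez gene 540313), which responds to growth factors and matrix-degrading signals, was the 1 member gene with a higher treated mean, and its 3 probe sets differed. The first read 6.97, 7.13 and 6.03 on the basal arrays and 8.26, 7.49 and 7.41 on the treated arrays. These groups did not overlap, with a difference of 1.01 (SE 0.37, interval 0.12 to 1.91) that did not pass. The second stood at a difference of 0.32 (interval -0.9996 to 1.63) and the third at 0.14 (interval -0.65 to 0.93), both with overlapping groups. In all 3 probe sets TGFB1 1 was the highest of the 6 arrays, at 8.26, 7.55 and 5.99. Without TGFB1 1 the last 2 turned to -0.19 and -0.20. ETS1 and FLI1 are neighbouring genes in the RefSeq annotation of assembly ARS-UCD2.0, and their leading probe sets had differences of opposite sign in these arrays.

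SOX18 (Entrez gene 519439), a factor of vessel and lymphatic development, read 10.70, 10.49 and 9.41 log2 on the basal arrays and 8.84, 8.70 and 8.76 on the treated arrays. The treated arrays agreed within 0.14 log2 while the basal arrays spanned 1.29, with basal 3 lowest. The difference was -1.43 (SE 0.34, interval -2.26 to -0.61), a ratio of 2.70 that did not pass the threshold. It ran from -1.83 without basal 3 to -1.18 without basal 1.

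KLF4 (Entrez gene 520842), the flow-induced factor that shares many targets with KLF2, read 9.50, 9.59 and 7.94 on the basal arrays and 9.53, 7.22 and 7.55 on the treated arrays. The groups overlapped, and TGFB1 1 lay between basal 1 and basal 2. The difference was -0.91 (SE 0.74), with an interval from -2.72 to 0.91 that leaves its direction undetermined. KLF4 had the largest treated spread of the members, 2.32 log2 from lowest to highest array.

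Treatment was not the only axis along which arrays differed, and the members followed the other axis to different degrees. The first principal component of all probe sets held 63.4% of the variance and set basal 1, basal 2 and TGFB1 1 (from -67.8 to -10.3) against basal 3, TGFB1 2 and TGFB1 3 (from 36.0 to 41.4). TGFB1 1 correlated best with TGFB1 2 (0.977), an array of the other side, so its place in this split is less clear. Basal 3 correlated best with TGFB1 3 (0.987), a treated array, and not with another basal array. The labels give no batch that matches this split, whose sides are called array sets here. The second component held 24.7% of the variance and set all basal arrays (from 10.9 to 38.2) against all treated arrays (from -48.0 to -5.7). Within the first of these array sets LMO2 differed by -1.89 and -1.97 log2 in its 2 probe sets, and within the second by -1.48 and -1.39. HHEX differed by -1.63 and -0.90, SOX18 by -1.75 and -0.68, and FLI1 by -0.63 and -0.67. ERG differed by -0.82 and -0.17 for its first probe set. In all of these probe sets the groups did not overlap, which fixes the sign within both sets. KLF4 differed by -0.01 within the first set and by -0.55 within the second. Between sets, KLF4 on basal 3 lay 1.61 log2 below the mean of basal 1 and basal 2 (7.94 against 9.54). ETS1 stood at 1.21 and 1.42 for its first probe set. Each of these values rests on 3 arrays and has no error of its own. With the array sets as a block, 5.61% of all probe sets passed, where 0.658% passed without it. The members among them were 6 probe sets, those of LMO2, HHEX, FLI1 and SOX18 and the first of ETS1. The sets were drawn from the component of these same values, and nothing is read from the members' count.

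Basal 3 was the lowest basal array in 9 of the 11 member probe sets, all but FLI1 and the second of ERG, where all probe sets gave 50.7%. The basal SD exceeded the treated SD in 7 of the 11, against 65.6% of all probe sets. Without basal 3, 8.38% of all probe sets passed, and the members among them were 6, those of LMO2, HHEX, FLI1 and SOX18 and the first of ERG. That fit sets basal arrays of 1 array set against treated arrays of which TGFB1 1 alone lies in the same set. Treatment and array set are partly confounded there. They are also partly confounded with all 6 arrays, since basal 1 and basal 2 lie in the first set and TGFB1 2 and TGFB1 3 in the second. With the array sets as a block KLF4 moved from -0.91 to -0.28 and the first LMO2 probe set from -1.82 to -1.69. The first ETS1 probe set moved from 1.01 to 1.32. In bulk RNA, fewer cells with a transcript and less transcript per cell cannot be told apart.

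**Figure D2:**
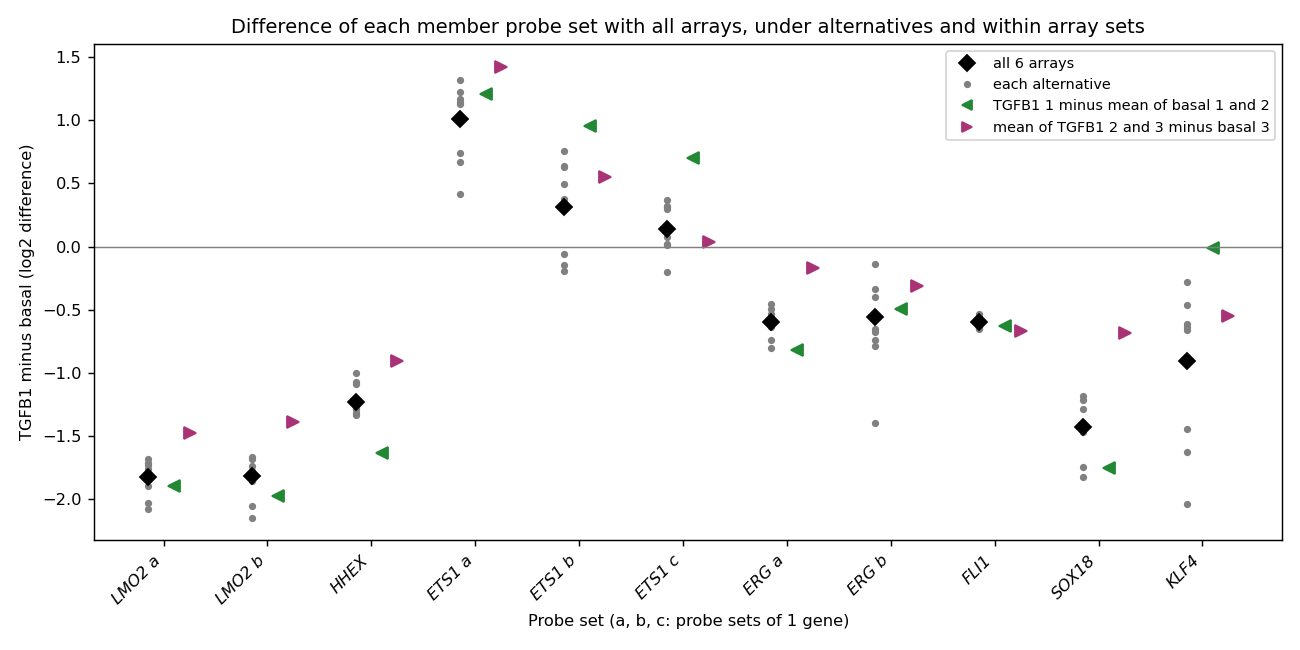
TGFB1 minus basal (log2, vertical axis) for each member probe set with all 6 arrays (black diamonds), under each alternative (grey points) and within the 2 array sets (green and purple triangles). FLI1 lies in the narrowest range, from -0.67 to -0.54, while 2 of the 3 ETS1 probe sets have points on both sides of 0 and KLF4 runs from -2.04 to -0.01. The KLF4 value of -2.04 is from the array weights, whose estimation did not converge.

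Endothelial identity of the cultures was checked with 9 marker genes, of which 7 were measured. PECAM1, CDH5, TEK, TIE1, EMCN and VWF lay above the median of all probe sets on each of the 6 arrays, and KDR did not (5.14 basal, 4.47 treated). VWF did so narrowly, at 5.99 to 6.33 log2 against medians of 5.88 to 5.92. By this measure 2 of 5 smooth muscle, 2 of 6 fibroblast and 1 of 6 leukocyte markers lay above the median too. None of the erythroid, platelet or lymphatic markers did. The measure is therefore not particular to endothelial genes. None of the 7 endothelial markers passed the limma threshold over genes, and their median difference was -0.52, against -0.03 over all genes. At an unadjusted p under 0.05 by limma, 4 of the 7 differed, where 17.4% of all genes did. PECAM1 (-0.52), CDH5 (-0.57) and KDR (-0.67) were lower and EMCN (0.82) higher on every treated than on every basal array. KDR lay below the 25th percentile of each treated array, where detection is not shown. These differences were of about the size of those of FLI1 and ERG. The part of these shifts in the members' differences was not tested. Their summed linear level ran from 12253 to 16104 in basal and from 11719 to 14252 in treated arrays. Because LMO2 and HHEX are also blood cell genes, markers of blood cells were read too. The 6 measured leukocyte markers summed to 228 to 246 in basal and 222 to 297 in treated arrays. Of the 5 erythroid markers none passed, and 1, EPB42, stood at an unadjusted p under 0.05 by limma (4.64 basal, 5.81 treated, a difference of 1.17). The others differed by 0.12 (HBB), -0.20 (HBA), 0.07 (ALAS2) and 0.16 (AHSP). HBA was lower on every treated than on every basal array. The sum of the 5, which ran from 114 to 131 in basal and from 140 to 199 in treated arrays, therefore follows EPB42 and not the markers as a class. PTPRC, the pan-leukocyte gene, stood at 3.90 and 3.84 log2, below the 25th percentile of every array, which ran from 4.52 to 4.60. The 2 platelet markers summed to 34.7 to 43.6 and 36.8 to 41.0. The sums were 74.1 to 84.7 and 81.9 to 88.2 for 3 lymphatic markers, 288 to 376 and 286 to 359 for 5 smooth muscle markers, and 512 to 1288 and 462 to 814 for 6 fibroblast markers. None of these markers passed either, and the part of other cell types in the members' differences was not tested.

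Genes that work with the members were counted in 6 lists set by function. Of 146 genes listed 83 were measured, and 3 were higher and 5 lower by limma over all genes, where 157 of 9155 (1.71%) passed in all. The median difference was -0.12 over these genes and -0.03 over all genes. Without basal 3 the count was 28, or 33.7% of these genes, where 16.8% of all genes passed. With the array sets as a block it was also 28, where 9.58% of all genes passed. With basal 1, basal 2 or TGFB1 2 left out it was 0 (limma, with 1175, 1009 and 1045 of all genes at an unadjusted p under 0.05), without TGFB1 1 it was 1 and without TGFB1 3 it was 3. Of the 83 genes 37 stood at an unadjusted p under 0.05 by limma, where 17.4% of all genes did. Counts at that level are given for each list below, to be set beside that share. The lists were made with earlier results of these data known, and nothing is read from these counts.

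None of the 11 measured partners of the LMO2 complex passed (2 at an unadjusted p under 0.05 by limma), with a median of -0.11. SSBP2, which stabilises the LDB1 scaffold bound by LMO2, stood at -0.80 (SE 0.17), and GATA6, the endothelial and smooth muscle GATA factor, stood at -0.64 (SE 0.20). TCF3, which encodes the E proteins that pair with TAL1, stood at -0.44, LMO4, another LIM-only factor, at 0.63, and GATA4, a cardiac GATA factor, at 0.18. The limma adjusted p of these 5 ran from 0.0890 to 0.506.

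Of 6 other measured ETS factors 4 stood at an unadjusted p under 0.05 by limma. ETV1, a member of the PEA3 group, rose. It read 4.57, 4.88 and 4.48 log2 on the basal arrays and 5.88, 6.04 and 5.85 on the treated arrays, a difference of 1.28 (SE 0.14, limma adjusted p = 0.0260). Its basal level lay near that percentile, and detection there is not shown. ETV2, the factor that specifies endothelium in the embryo, stood at -0.77 (SE 0.14, limma adjusted p = 0.0620). ETS2, the neighbour of ERG in the same RefSeq assembly, stood at -0.81 (SE 0.27), ELF2 at 0.55 and ELF1 at -0.26. ELF2 had a further probe set, which did not share the sign of the 0.55. Of 6 other SOX and KLF factors none passed (3 at an unadjusted p under 0.05 by limma). KLF10 stood at 0.44 (SE 0.11), KLF15 at -1.21 (SE 0.38), KLF11 at -1.04 (SE 0.35), KLF5 at 0.12 and SOX4 at 0.03.

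Among 20 other transcription factors of endothelium, EPAS1, the hypoxia-inducible factor 2 subunit, fell and SNAI1, a repressor of adhesion genes, rose. Of the 20, 9 stood at an unadjusted p under 0.05 by limma. EPAS1 differed by -3.15 (SE 0.26, limma adjusted p = 0.0188) and SNAI1 by 1.01 (SE 0.17, limma adjusted p = 0.0489). SNAI1 did not pass with limma-trend, robust eBayes, a further quantile normalization or either other way to represent a gene, where EPAS1 did. NR2F2, the venous identity factor, stood at 0.60, ZEB1, a repressor linked to mesenchymal change, at 0.64 and HIF1A, the sister of EPAS1, at 0.93, with limma adjusted p from 0.133 to 0.149. NR2F2 had 3 probe sets, and besides the one used only 1 shared the sign of the 0.60.

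The endothelial genes with regulatory sequences known to be bound by ETS factors, GATA2 or TAL1 numbered 26, of which 3 fell and none passed as higher, with a median of -0.20 (11 at an unadjusted p under 0.05 by limma). CLDN5, the tight junction claudin, fell by 3.17 log2 (SE 0.41), RAMP2, the adrenomedullin co-receptor, fell by 1.40 (SE 0.23), and CD93, a surface receptor of angiogenic endothelium, fell by 1.23 (SE 0.19). Their limma adjusted p was 0.0371, 0.0473 and 0.0460. With a further quantile normalization RAMP2 and CD93 did not pass. PROCR, the protein C receptor, stood at -1.18 (SE 0.22) and PECAM1 at -0.52 (SE 0.13), neither past the threshold. The list also held genes with every treated array above every basal array, of which 3 are named here after their values were seen. PLVAP, the protein of endothelial diaphragms, stood at 1.40 (SE 0.48), ENG, a TGF-beta co-receptor, at 0.99 (SE 0.38) and EMCN, a surface sialomucin, at 0.82 (SE 0.20), with limma adjusted p from 0.112 to 0.253. ENG, EMCN and PLVAP passed with the array sets as a block.

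Targets of KLF2 and KLF4 were 18 (8 at an unadjusted p under 0.05 by limma), a list that holds genes these factors induce and genes they restrain. SELE, the leukocyte-capturing selectin that they restrain, rose by 3.23 log2 (SE 0.22). The induced prostaglandin carrier SLCO2A1 fell by 2.52 log2 (SE 0.21). Their limma adjusted p was 0.0155 and 0.0188. Of the induced genes NQO1, an antioxidant enzyme, stood at -0.66, NPPC, a natriuretic peptide, at 0.44 and the anticoagulant receptor THBD at -1.24 (SE 0.41). None of these passed, with limma adjusted p from 0.125 to 0.201. The list also held NOS3 at 0.11, PTGIS at 0.29 and TEK at 0.02. The list's median was -0.10, with 9 of the 18 below 0. As the list mixes induced and restrained genes, its median has no single meaning.

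**Figure D3:**
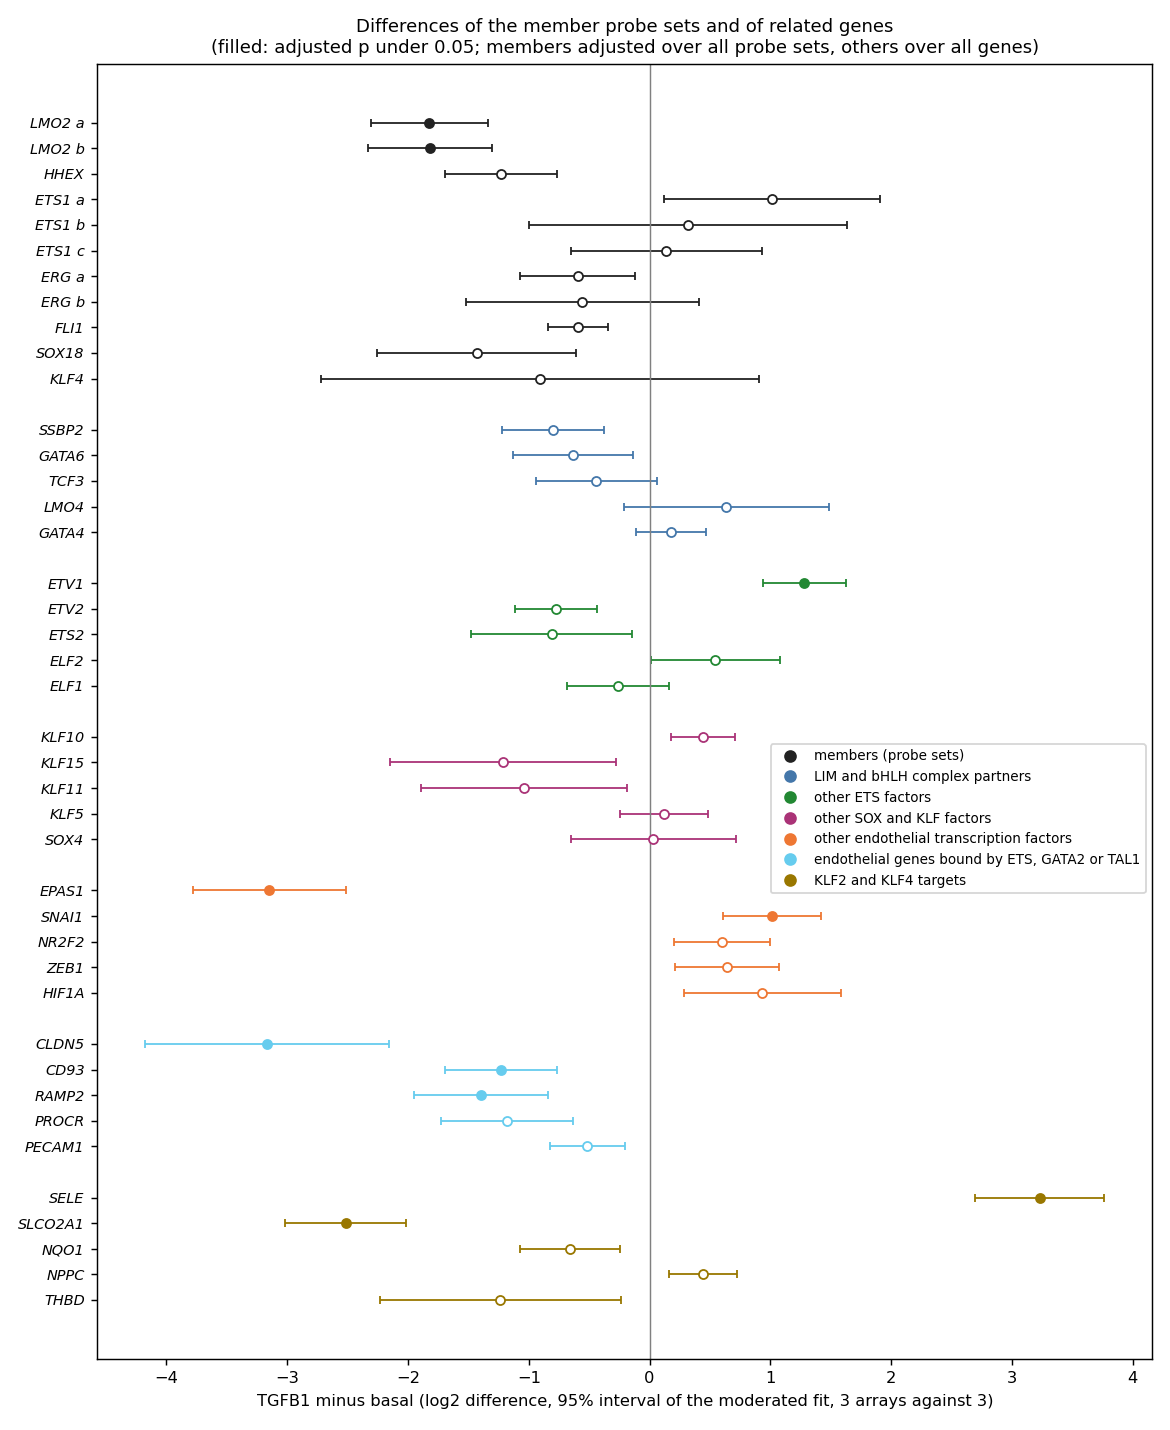
TGFB1 minus basal (log2 difference, horizontal axis) with the 95% interval of the moderated fit, for the 11 member probe sets (black) and the 5 genes of smallest p in each of the 6 lists, with filled points for adjusted p under 0.05. Both LMO2 probe sets lie near -1.82, CLDN5 and EPAS1 lie beyond -3, and ETV1, SNAI1 and SELE are the filled points above 0. HHEX is open because members are marked here by the fit over probe sets.

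Genes whose pattern over the 6 arrays was most like that of LMO2 were sought among 2512 genes that spanned at least 1 log2 unit. By Pearson correlation over 6 arrays, as a description, they were CNRIP1 (0.998), a cannabinoid receptor interacting protein, NPDC1 (0.997), ALDH2 (0.996), the mitochondrial aldehyde dehydrogenase, LGALS3 (0.995), a galactose-binding lectin, and IFI30 (0.995), a lysosomal thiol reductase. CNRIP1 read 11.22, 11.10 and 10.68 log2 on the basal arrays and 9.83, 9.69 and 9.73 on the treated arrays. These 5 genes differed by -1.25 (CNRIP1), -1.23 (NPDC1), -0.94 (ALDH2), -1.20 (LGALS3) and -1.12 (IFI30), each by less than LMO2. All shared the lower basal 3.

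For HHEX the genes most alike were SERPINB1 (0.997), an inhibitor of neutrophil proteases, TM4SF5 (0.997), a tetraspanning membrane protein, TMEM44 (0.994), WDR59 (0.993), a subunit of a complex in nutrient sensing, and DFFB (0.992), the nuclease of apoptotic DNA cleavage. TM4SF5 read 8.87, 8.42 and 8.35 on the basal arrays and 7.24, 7.62 and 7.61 on the treated arrays, with TGFB1 1 lowest. The differences of these 5 genes ran from -1.06 for TM4SF5 to -0.66 for DFFB. LMO2 and HHEX correlated at 0.929, below these values. With the group means taken out, the first LMO2 probe set and HHEX correlated at 0.15. Patterns with a correlation of 0.9 or more were frequent, 303 genes for LMO2 and 232 for HHEX among the 2512.

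**Figure D4:**
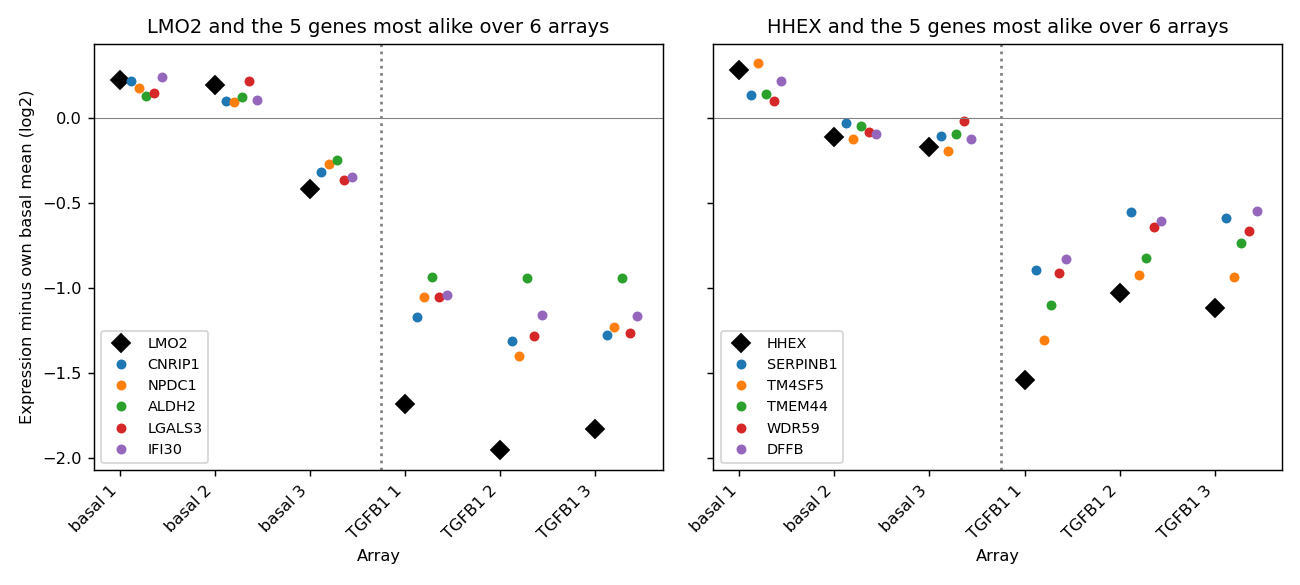
Expression minus the gene's own basal mean (log2, vertical axis) on each of the 6 arrays, for LMO2 (left) and HHEX (right) as black diamonds and the 5 genes most like each as coloured points. LMO2 and its 5 genes are lowest among basal arrays on basal 3, and HHEX and its 5 genes are lowest on TGFB1 1.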

How the data were processed

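The authors deposited log2 expression for 6 arrays, and the submitters' processing notes name RMA and affy without versions. RMA removes background, equalises the distribution of all arrays and combines probes into 1 value per probe set, so changes near background are compressed. The 112 control probe sets were left out, 24016 were tested, and 13292 of these had 1 gene symbol, 86 several and 10638 none. All 11 member probe sets matched RefSeq (ARS-UCD2.0) by gene identifier, used for names and neighbours only. For a gene, the probe set of highest mean stood in. No sequences of members were used here.

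Treated minus basal was fitted by limma 3.58.1 under R 4.3.3 (lmFit, then eBayes, with a single group term, two-sided, Benjamini-Hochberg at 0.05), over all probe sets and over all 9155 genes, with no filter on dim probe sets. The members and lists were chosen with earlier results of these data known. Named beside the members were the 5 genes with the smallest unadjusted p of each list and the 5 genes most correlated with LMO2 and with HHEX, passing over identifiers without a gene name. The exact permutation test of 3 arrays against 3 cannot go below 0.1. In 10 simulations of 24016 probe sets with the arrays' spread, 52.6% of changes of 1 log2 and 80.7% of changes of 2 log2 were called. Of 1425 calls 86 were false. The noise was drawn independently for each probe set and array, without the axis that the real arrays share. These rates therefore need not hold for this series. Settings tried besides were robust eBayes, limma-trend, median centring, another round of quantile normalization, weights per array, filters on dim probe sets (the lowest 25 or 50 percent), a threshold of 0.1, blocks by replicate number or array set, leaving out each array, and 2 other ways to represent a gene. Figures were drawn with matplotlib 3.10.9.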

Additional observations from a re-analysis of the deposited data

How the results depend on the processing

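Of the alternatives run on the members' differences, 10 could move them, since filters and the replicate block leave a difference as it is. In the 7 probe sets whose groups do not overlap, leaving out an array cannot turn the sign. In the other 4, the last 2 ETS1 probe sets turned below 0 in 3 and 1 of the 10, the second of ERG ran from -1.39 to -0.14 and KLF4 from -2.04 to -0.28. Counts of calls moved more. Of all probe sets 158 passed (73 higher, 85 lower), and 100 with a further quantile normalization (43 lower), 87 with limma-trend, 543 at a threshold of 0.1, 1348 with the array-set block and 11348 with array weights. For genes 157 became 99 with limma-trend, 429 at 0.1, 877 with the array-set block and 444 with array weights. The estimation of the weights stopped before it converged and gave 29.9 to basal 2 in the fit over probe sets. The -1.39 of ERG, the -2.04 of KLF4, the -2.08 of LMO2 and the -1.003 of HHEX came from that fit. Member probe sets past the threshold, 2 of 11, became 4 at 0.1, 6 with the array-set block and 8 with array weights. Of the related genes 8 became 5 with quantile normalization, 5 with the most variable probe set, 13 with array weights and 28 with the array-set block. They became 5 too with the filter at the median level. That filter leaves dimmer genes untested, so this fall need not be a loss of significance. HHEX lost its call over genes with limma-trend (adjusted p = 0.0573) and with the most variable probe set (0.0516).

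Leaving out 1 array gave 1 to 2012 probe sets, 0 to 1537 genes, 0 to 6 member probe sets and 0 to 28 related genes, with the highest counts without basal 3. With the replicate number as a block (replicate block, limma) 0 probe sets, 0 genes, 0 members and 0 related genes passed, with 4450 probe sets and 2038 genes at an unadjusted p under 0.05. Same-numbered arrays deviated together in 2 of 3 pairs (correlations 0.67, -0.45 and 0.69), so the numbers are not shown to pair the arrays. The cause of these moves was not tested.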
